A study of Prunus persica with 20 samples.

Results

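TN7 and TN11 are peach accessions (Prunus persica) that both bear fuzzy fruit. Their labels give them different genotypes at G, the locus of fruit fuzz, with Gg in TN7 and GG in TN11. The comparison rests on the libraries of these accessions, 9 of the 19 in the count table: 4 of TN7 (replicates 1, 2, 3 and 5) and 5 of TN11 (replicates 1 to 5). TN7 replicate 4 was not analysed here. The other accessions are nectarines: MN (Maravilha Nectarine Mutant, stated Gg, which arose from a peach, 5 libraries) and Sunraycer (stated gg, 5 libraries). They are used below to place the peaches. They also entered the filter on low counts, the scaling and the shared estimate of spread behind the p-values. The RNA of all samples came from fruit at the stage of fruit set, with no treatment named. Each genotype of a peach is represented by a single accession, so an effect of G and any other inherited difference between TN7 and TN11 cannot be told apart. The labels do not say if replicates came from separate trees or fruits. The p-values therefore cover only the variation among the libraries fitted, nectarines included, which may be technical.

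Peach fuzz consists of trichomes, hairs that grow out of single cells of the fruit epidermis. In many plants, transcription factors of the MYB family control which epidermal cells grow out into hairs. In peach, fuzz is dominant over smoothness, and the smooth allele g has been attributed to loss of function of a MYB gene, PpMYB25. On that account a Gg peach is hairy with a single working copy, and a GG peach has both. The comparison asks how the transcripts of a Gg and a GG fruit differ when both are hairy.

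The gene IDs of the table are not paired with names or descriptions in the sources used here (0 of them occur in the RefSeq gene table). The MYB gene is identified from background knowledge, and other genes are given by ID, position along the chromosome and level. No list of pathway genes or tissue markers could be formed for that reason, and the label of the tissue was not checked against markers. Levels are CPM, counts scaled to a common library size by TMM factors, which do not correct for gene length. Levels of a single gene are compared between libraries. Where genes are grouped by level, or their levels are summed or set side by side, gene length is not accounted for.

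Library totals were 18693551 to 22385808 counts in TN7 and 18895521 to 23091696 in TN11. Correlations of log2 CPM between libraries, across genes, were 0.939 to 0.988 within TN7, 0.965 to 0.991 within TN11 and 0.918 to 0.954 between them. TN7 5 stood apart from its group, with a mean correlation of 0.945 to the other TN7 libraries, whereas TN7 1, TN7 2 and TN7 3 had 0.963 to 0.967. In the principal components of the peach libraries, the first component (43.4% of variance) ran from 20.1 to 68.3 in TN7 and from −58.3 to −31.3 in TN11. TN7 5 was the TN7 library nearest to TN11 on it, and it had the lowest value of the second component (26.5% of variance), −88.4. A common direction of spread was taken as the first principal component of the deviations of all libraries from their accession means. Each library was scored by projecting its log2 CPM, centred per gene over all libraries, on that component. The scores, scaled to a standard deviation of 1 over all libraries, overlapped between the peaches, with −0.784 to 0.802 in TN7 and −0.505 to 0.517 in TN11.

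Prupe.5G196100.v2.1, the MYB gene known as PpMYB25 and required for fruit hair, was lower in the Gg peach. It had 17.8, 14.3, 18.9 and 16.5 CPM in TN7 libraries 1, 2, 3 and 5, against 57.1, 33.8, 41.4, 44.0 and 47.0 CPM in TN11 libraries 1 to 5. The highest TN7 library lay below the lowest TN11 library, and TN7 5, apart in its overall profile, was not apart for this gene. The means were 16.9 ± 2.00 CPM in TN7 (SD, n = 4) and 44.7 ± 8.49 CPM in TN11 (SD, n = 5). The difference was 2.64-fold (log2 −1.40, SE 0.328; edgeR quasi-likelihood adjusted p = 0.0112 over 19360 genes). A limma-voom fit gave −1.39 with a 95% interval of −1.82 to −0.949, or 1.93-fold to 3.53-fold lower in TN7. An exact permutation test of the CPM values (two-sided) gave p = 0.0159, the smallest value that groups of 4 and 5 allow. In bulk fruit RNA, fewer cells that express a gene and less RNA per cell cannot be told apart.

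The call of the MYB gene did not hold in every fit. A fit of the peach libraries alone called the gene, at log2 −1.39 (SE 0.157, edgeR adjusted p = 0.000669). The glmTreat test, which asks for a difference beyond 2-fold, did not call it (adjusted p = 1). Leaving out TN7 5 and TN11 1 together gave −1.29 (SE 0.386, edgeR adjusted p = 0.0585). The tested genes next to it did not share its difference: of the 20 on each side, 1 was higher in TN7 and 0 were lower, with a median log2 fold change of −0.0286 (quartiles −0.217 and 0.235). In the nectarines the MYB gene had 2.24 to 4.27 CPM in MN and 0.847 to 4.96 CPM in Sunraycer, below every peach library.

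**Figure D1:**
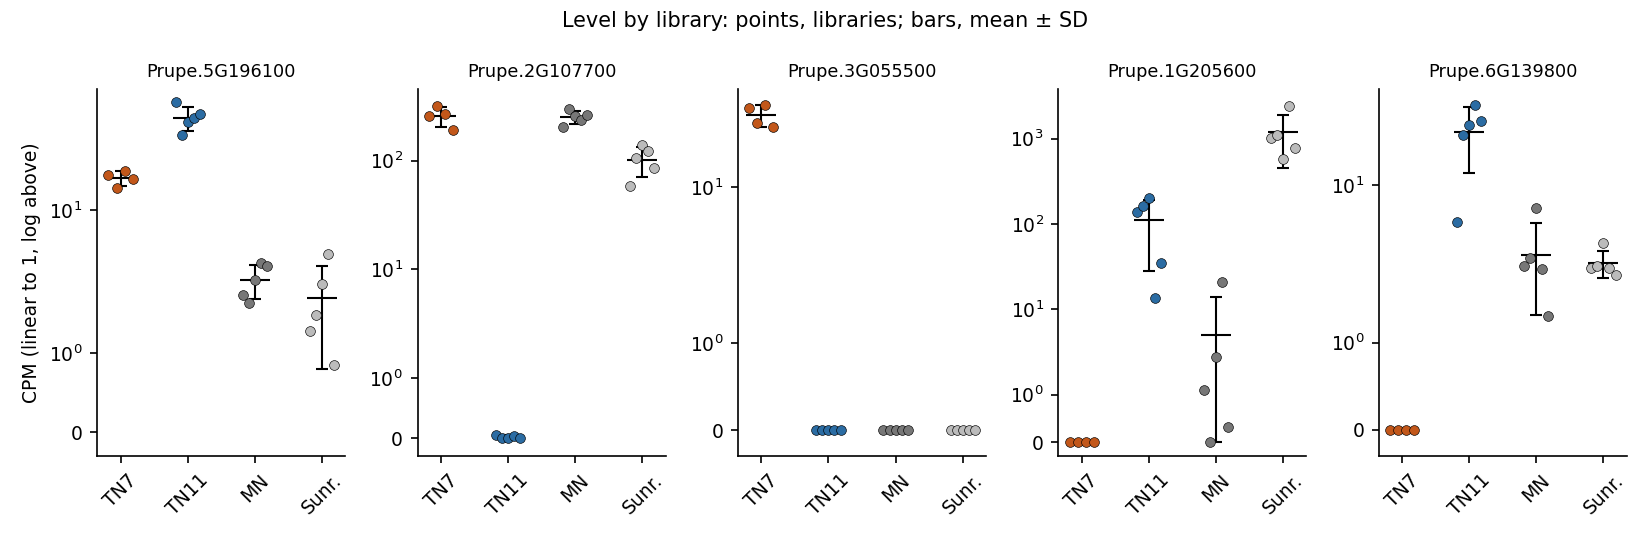
CPM (linear up to 1, logarithmic above) of the G locus gene and the 4 genes with the largest differences, by accession. Points are libraries and bars are means ± SD with the lower arm ended at 0; the G locus gene lies at 14.3 to 18.9 CPM in TN7 and 33.8 to 57.1 CPM in TN11, and the other genes are at or near 0 in one peach.

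Across the transcriptome the peaches differed in 840 of 19360 tested genes, 4.34% (edgeR's quasi-likelihood test, adjusted p below 0.05 and at least 2-fold). TN7 was lower in 539 of them (2.78% of tested genes) and higher in 301 (1.55%). The excess of lower genes was present in each alternative fit, where 31.9% to 43.9% of the called genes were higher. The median sizes were alike in both directions, at 3.85-fold among the higher genes (quartiles 2.51 and 9.27) and 3.86-fold among the lower genes (quartiles 2.59 and 7.33). By the fitted folds, large differences made up a greater share of the higher genes. Differences over 8-fold were found in 84 higher genes (27.9%) and 126 lower genes (23.4%). Differences over 64-fold were found in 32 of the 301 higher and 21 of the 539 lower genes. Where a peach had no count, the fitted fold can exceed what the counts bound. Prupe.1G007900.v2.1, without a count in TN7, was fitted at log2 −7.40. Against a floor of 3 counts over the TN7 libraries it was at least 28.9-fold lower in TN7. How many of the folds over 64 rest on such fits was not counted. The median log2 fold change of all tested genes was −0.00673. When the test was made against a difference of 2-fold (glmTreat), 129 genes were higher and 171 lower in TN7.

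Most called genes separated the peaches without overlap. The CPM ranges of TN7 and TN11 did not overlap in 279 of the 301 higher and 472 of the 539 lower genes, while 13.3% of all tested genes had such ranges. The genes were called on these same libraries, so the larger share among them largely follows from how they were chosen. The called genes held a small share of the counts. The higher genes took 0.529% of the counts in TN7 and 0.163% in TN11, and the lower genes 0.369% in TN7 and 1.32% in TN11.

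The called share fell with level. Of 1851 genes with a mean below 1 CPM over the peach libraries, 11.3% were called, with a median difference of 6.03-fold. The share was 9.65% from 1 to 5 CPM, 3.96% from 5 to 20 CPM, 1.64% from 20 to 100 CPM and 0.916% of the 2292 genes at 100 CPM or more. In this last class 3 genes were higher and 18 lower in TN7, with a median difference of 3.02-fold. The bins say nothing of genes that were too low to be tested, 7451 of 26811. The filter also kept genes that were high enough in a single accession. Prupe.1G007900.v2.1, for example, had 1.02 CPM in TN11 and no count in TN7, MN or Sunraycer. How far the share and size of differences in the lowest class follow from the filter was not tested.

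**Figure D2:**
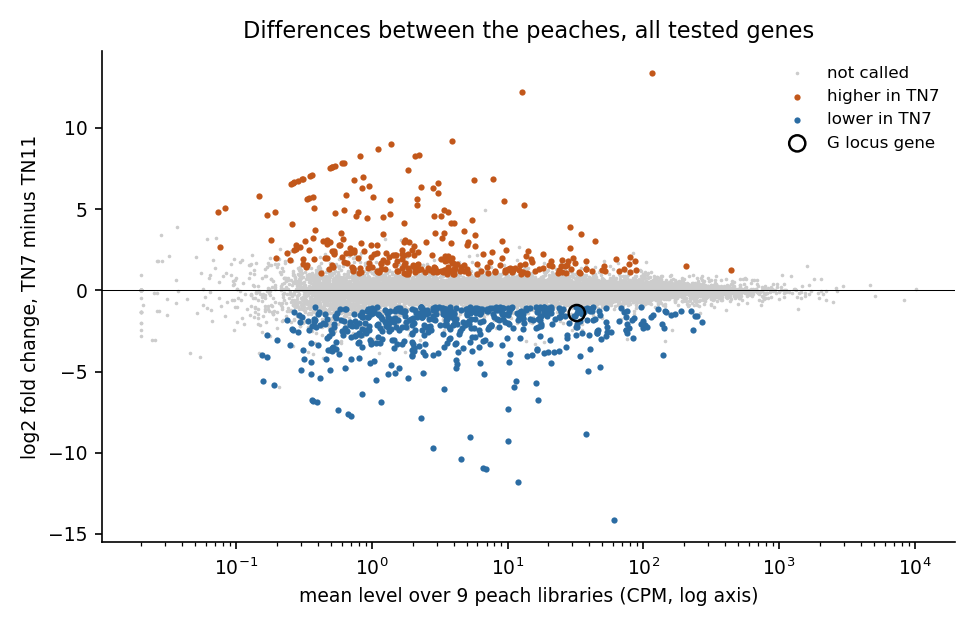
Log2 fold change, TN7 minus TN11, of each tested gene against its mean CPM over the peach libraries (log axis; 30 genes below 0.02 CPM are drawn at 0.02). Orange points are the 301 genes called higher in TN7, blue points the 539 called lower, grey points the genes not called, and the circle is the G locus gene at −1.40.

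The largest difference upward was in Prupe.2G107700.v2.1. It had 256, 321, 266 and 190 CPM in TN7 libraries 1, 2, 3 and 5. TN11 1 and TN11 4 held 1 count each and the other TN11 libraries none. All TN7 libraries were thus high and all TN11 libraries at or near 0. The ratio of TN7 to TN11 was 14137 (95% counting interval 3913 to 116730, which covers counting error only; edgeR adjusted p = 4.64e-13). The gene was also abundant in both nectarines, at 202 to 297 CPM in MN and 57.9 to 138 CPM in Sunraycer, so TN11 was the accession that lacked it.

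Prupe.3G055500.v2.1 was also far higher in TN7 than in TN11, but unlike Prupe.2G107700.v2.1 it was without a count in both nectarines. It reached 31.97, 25.7, 33.1 and 24.0 CPM in TN7 libraries 1, 2, 3 and 5 and had no count in any TN11, MN or Sunraycer library. Against a floor of 3 counts over the TN11 libraries it was at least 1050-fold higher in TN7 (edgeR adjusted p = 1.61e-05). Here TN7 was the accession that stood alone.

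Among the genes lower in TN7, Prupe.1G205600.v2.1 had the largest fitted difference, and its level was uneven within TN11. It had no count in any TN7 library, against 137, 164, 202, 13.7 and 34.5 CPM in TN11 libraries 1 to 5. TN11 4 and TN11 5 formed a low pair, and they were also the pair of peach libraries most alike over all genes (correlation 0.991 across genes). TN7 was at least 3060-fold lower (edgeR adjusted p = 0.00176). In MN the gene ranged from 0 to 21.0 CPM and in Sunraycer from 579 to 2429 CPM.

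Prupe.6G139800.v2.1 was likewise without a count in every TN7 library, while TN11 libraries 1 to 5 had 5.85, 20.6, 24.0, 32.1 and 25.6 CPM. TN11 1 was the low library, and the gene was at least 625-fold lower in TN7 (edgeR adjusted p = 1.05e-06). It had 1.48 to 7.18 CPM in MN, where the highest library lay above TN11 1, and 2.67 to 4.29 CPM in Sunraycer.

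Genes silent in one peach were few. A gene was counted when it had no count in any library of one peach and at least 10 counts in every library of the other. There were 13 such genes with transcript in TN7 and none in TN11, spread over 6 chromosomes, and 9 with none in TN7 and transcript in TN11, spread over 5 chromosomes. The numbers follow the limit. At least 5 counts gave 20 genes silent in TN11 and 13 in TN7, and at least 20 counts gave 6 and 8. Which peach had more silent genes thus depends on the limit. The rule was also uneven between the directions, since TN7 had 4 libraries and TN11 had 5. All 22 are among the called genes, which the way they were chosen makes nearly certain. Genes present in TN7 alone of the peaches were mostly low, with mean levels of 0.648 to 28.7 CPM (median 1.22), and were at least 23.1-fold to 1050-fold higher than in TN11. Genes present in TN11 alone of the peaches had 1.02 to 110 CPM (median 8.22) and were at least 28.9-fold to 3060-fold lower in TN7.

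The nectarines did not all side with the same peach for these genes. Of the 13 genes silent in TN11, 7 had counts in both MN and Sunraycer, 2 in MN alone, 2 in Sunraycer alone and 2 in neither. Some of these counts were very low, and in 5 of the 13 both nectarines had at least 5 counts over all their libraries, in 5 neither had, in 1 MN alone had fewer and in 2 Sunraycer alone had fewer. Of the 9 genes silent in TN7, 7 had counts in both nectarines and 2 in neither. By the limit of 5 counts, 5 of the 9 were present in both nectarines and 2 in neither, while MN alone was below it in 1 and Sunraycer alone in 1. Whether an absent count reflects an unexpressed gene, a missing gene or reads that could not be aligned was not tested.

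**Figure D3:**
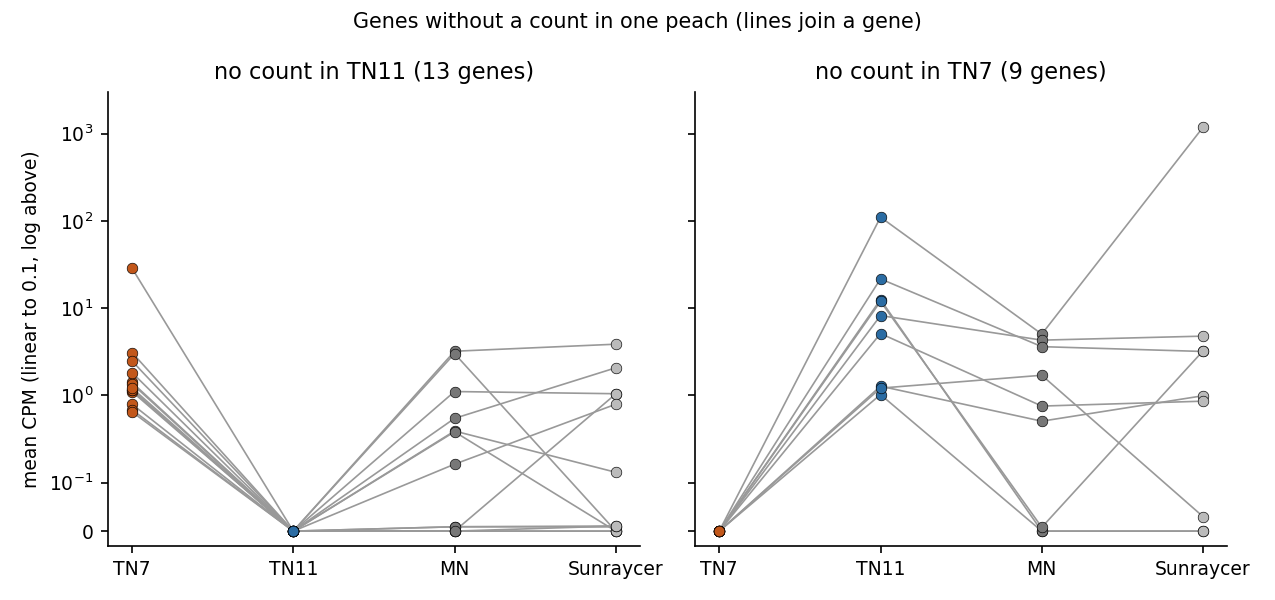
Mean CPM (linear up to 0.1, logarithmic above) by accession of the genes silent in TN11 (13 genes, left) and silent in TN7 (9 genes, right); lines join the values of a gene. Genes silent in TN11 lie at 0.648 to 28.7 CPM in TN7, and genes silent in TN7 lie at 1.02 to 110 CPM in TN11.

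Called genes lay on all 8 chromosomes. Chromosome numbers and gene order were read from the IDs, which number genes along each chromosome. The called share of tested genes was highest on chromosome 3, with 127 of 2265 genes (5.61%), and chromosome 4, with 108 of 2001 (5.40%). It was lowest on chromosome 2, with 72 of 2339 (3.08%), and chromosome 7, with 68 of 1988 (3.42%). Chromosome 5, which carries the G locus, had 72 of 1834 (3.93%), under the 4.34% of all tested genes. Genes lower in TN7 outnumbered the higher ones on each chromosome, and the higher genes made up 27.8% of the calls on chromosome 4 and 42.6% on chromosome 7.

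Along the chromosomes the calls were spread widely, with a few dense stretches. Of 383 windows of 50 consecutive tested genes, the median held 2 called genes (quartiles 1 and 3) and 61 held none. In 7 windows 9 or more genes were called, 68 genes in all, of which 34 were higher and 34 lower in TN7. The densest was the window of tested genes 101 to 150 of chromosome 6, with 8 higher and 3 lower genes. Next came 3 windows with 10 called genes each: tested genes 551 to 600 and 1201 to 1250 of chromosome 1 and 1751 to 1800 of chromosome 3. The window of genes 1601 to 1650 of chromosome 3 was nearly one-sided, with 8 higher and 1 lower in TN7. The median log2 fold changes of the 7 windows ran from −0.163 to 0.197. The window that holds the G locus gene, the 1449th of 1834 tested genes on chromosome 5, had 1 higher and 1 lower gene.

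**Figure D4:**
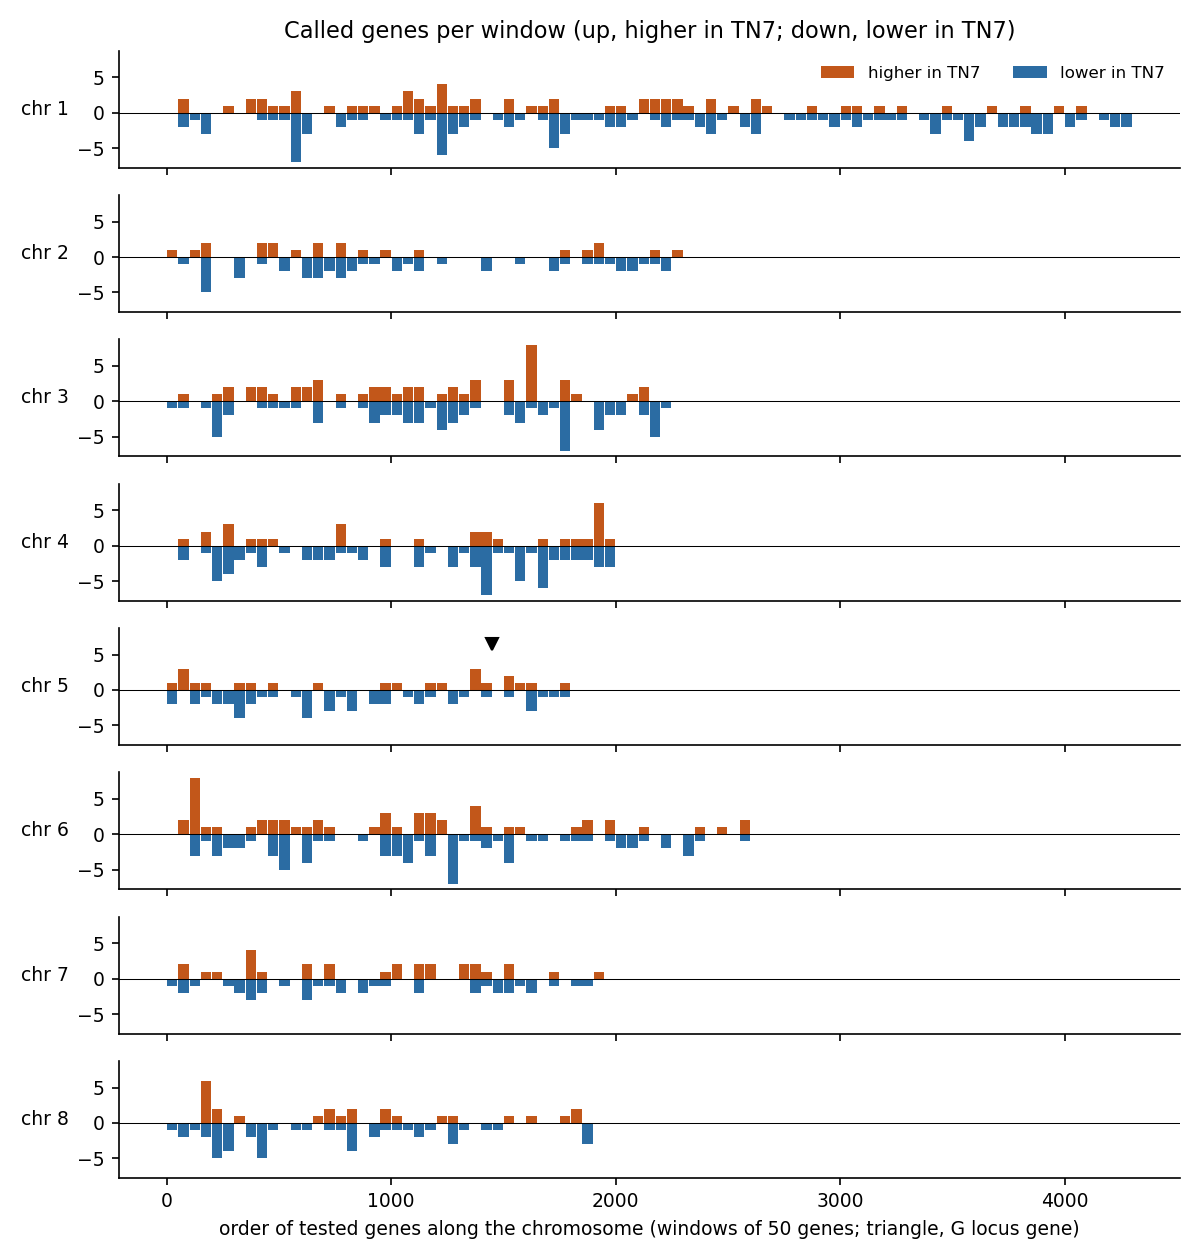
Number of genes called higher (up, orange) and lower (down, blue) in TN7 in each window of 50 consecutive tested genes, in order along the 8 chromosomes. The tallest bars stand on chromosomes 3 and 6, with 8 higher genes in a window, and the triangle marks the G locus gene on chromosome 5, in a window with 1 higher and 1 lower gene.

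Most called genes, 646 of 840, had no called gene directly next to them among the tested genes, and 194 (23.1%) had one. Of the genes not called, 7.65% had a called gene next to them. In 84 of the 108 neighbouring pairs of called genes both differed in the same direction, where 35.8% of all called genes were higher and 64.2% lower in TN7. Neighbours can be near-identical copies, and how the counting divided reads between copies is not given in the sources used here, so the levels of single genes in such runs are uncertain.

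The longest run with a single direction was on chromosome 6 (tested genes 1272 to 1277), where 6 genes with consecutive IDs were all lower in TN7, by 5.61-fold to 13.6-fold (edgeR adjusted p = 0.00202 to 0.0447). Their summed level was 0.917, 1.78, 0.886 and 3.17 CPM in TN7 libraries 1, 2, 3 and 5. In TN11 libraries 1 to 5 it was 4.42, 11.5, 21.7, 23.6 and 28.1 CPM. TN7 5 was the highest TN7 library and TN11 1 the lowest TN11 library for this sum, and the groups did not overlap. The sum was 0.943 to 3.02 CPM in MN and 8.06 to 43.1 CPM in Sunraycer. In limma-voom 4 of the 6 genes were called.

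Another run of 5 genes on chromosome 6 (tested genes 122 to 126, within the densest window) had 4 genes higher and 1 lower in TN7. Its summed level was 66.4, 87.3, 58.4 and 51.1 CPM in TN7 libraries 1, 2, 3 and 5 and 17.1, 22.6, 21.6, 34.0 and 27.1 CPM in TN11 libraries 1 to 5. On chromosome 1, 6 neighbouring genes (tested genes 1232 to 1237) were mixed, with 2 higher and 4 lower in TN7 and log2 fold changes from −5.38 to 4.48. The sum over that run did not separate the groups, with 19.9 to 27.2 CPM in TN7 and 10.7 to 31.5 CPM in TN11.

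The libraries were unequal in how far they followed the difference between the peaches. For each called gene a library was placed on a scale from 0, the TN11 mean of log2 CPM, to 1, the TN7 mean. The choice of genes places TN7 near 1 and TN11 near 0, so the spread within each is the only content for the peaches. Among the 539 lower genes, TN11 1 was nearer to the TN7 mean in 92 (17.1%), whereas the other TN11 libraries were so in 3 to 26. TN7 5 was nearer to the TN11 mean in 40 (7.42%) and the other TN7 libraries in 2 to 24. Among the 301 higher genes the largest such numbers were 12 in TN7 5 and 14 in TN11 2. The lower genes varied more between libraries, with a median SD of log2 CPM of 0.482 in TN7 and 0.450 in TN11, against 0.342 in TN7 and 0.419 in TN11 among the higher genes. Both sets varied more than all tested genes, where the median SD was 0.264 in TN7 and 0.215 in TN11. Level, on which the SD of log2 CPM depends, was not matched between these sets, and the called share was highest at low level. Without TN7 5 and TN11 1 there were 273 higher and 583 lower genes.

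The nectarine libraries were placed on the same scale. They were not part of the contrast that chose the genes, but they entered the filter on low counts, the TMM scaling and the shared dispersion. For the genes higher in TN7, the median position was 0.766 to 0.818 in the MN libraries and 0.530 to 0.774 in the Sunraycer libraries. For the lower genes it was 0.673 to 1.04 in MN and 0.337 to 0.471 in Sunraycer. The mean level of MN was nearer to TN7 than to TN11 in 609 of the 840 genes (72.5%), against 56.9% of all tested genes. Sunraycer was nearer to TN7 in 419 (49.9%), against 51.9% of all tested genes. Both nectarines were nearer to TN7 in 334 called genes (39.8%), against 25.6% of all tested genes. MN was nearer to TN11 and Sunraycer to TN7 in 85 (10.1%), against 26.2% of all tested genes. The other arrangements were near the share of all tested genes: both nectarines were nearer to TN11 in 146 (17.4%, against 16.9%), and MN was nearer to TN7 and Sunraycer to TN11 in 275 (32.7%, against 31.2%). The called genes were selected on the peach libraries that define the scale, so these shares are descriptions without a test.

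**Figure D5:**
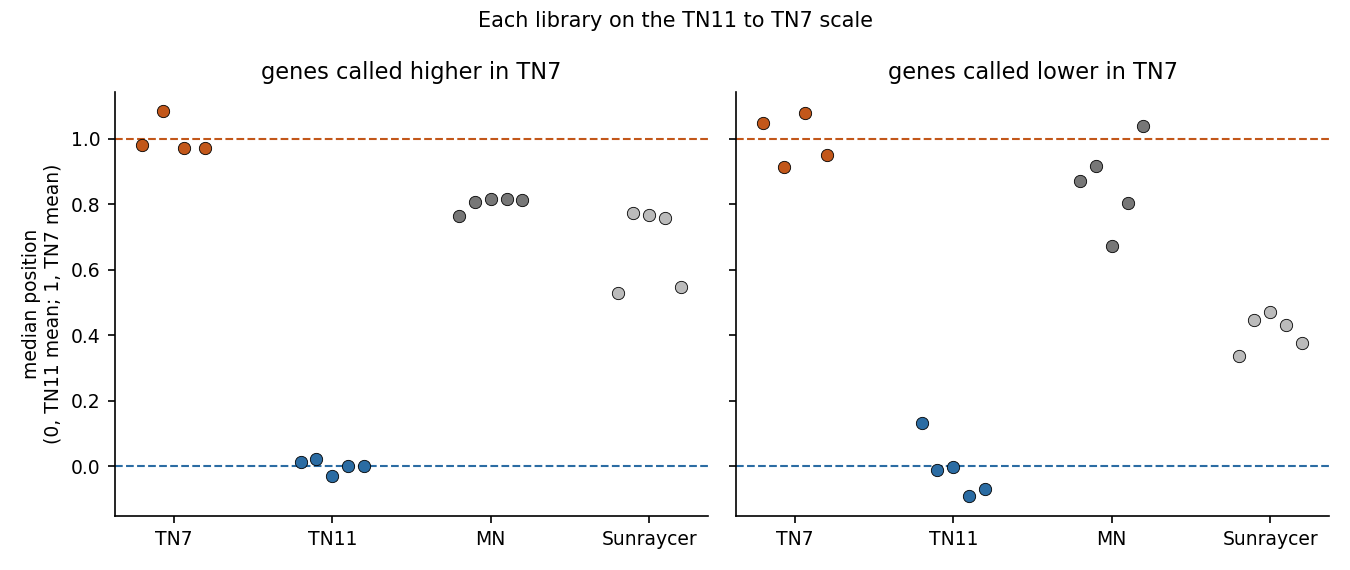
Median position of each library on the scale from the TN11 mean (0, blue line) to the TN7 mean (1, orange line) over the 301 genes called higher (left) and the 539 called lower in TN7 (right). MN libraries lie at 0.766 to 0.818 and 0.673 to 1.04, Sunraycer libraries at 0.530 to 0.774 and 0.337 to 0.471; the peaches lie near their own lines because the genes were chosen on them.

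MN minus Sunraycer also sets a Gg accession against a homozygous one, but the homozygotes are opposite, GG in TN11 and gg in Sunraycer. By the stated genotypes, TN7 has fewer copies of G than TN11, whereas MN has more than Sunraycer. MN minus Sunraycer shares no library with TN7 minus TN11. It called 4884 genes, 25.2% of the tested genes, 1628 of them higher (8.41%) and 3256 lower (16.8%) in MN. Of the 539 genes lower in TN7 than in TN11, 240 (44.5%) were also lower in MN than in Sunraycer, or 7.37% of the genes lower in MN, and 60 (11.1%) were higher in MN. Of the 301 genes higher in TN7, 62 (20.6%) were also higher in MN, or 3.81% of the genes higher in MN, and 47 (15.6%) were lower. The median log2 fold change of MN minus Sunraycer was −0.912 over the genes lower in TN7, 0.169 over those higher in TN7 and 0.0355 over all tested genes. The scores of the common direction of spread did not overlap between the nectarines, with −1.68 to −0.260 in MN and 0.364 to 2.53 in Sunraycer. MN and Sunraycer thus also differed along that direction, so the score as a covariate takes up part of their contrast too. The number of genes called in MN minus Sunraycer with the covariate is not given here. With the score as a covariate, 733 genes were lower in TN7 than in TN11. The genes lower in both contrasts numbered 107 in that fit and 157 without TN7 1. The MYB gene was not among them: MN minus Sunraycer was 0.43 for Prupe.5G196100.v2.1 (edgeR adjusted p = 0.265), where both nectarines were low.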

How the data were processed

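RNA of fruit at fruit set was extracted with a Qiagen RNeasy plant kit and made into TruSeq stranded mRNA libraries, per the labels' protocols. The authors deposited a table of whole-number counts per gene (26811 genes, 19 libraries) without normalization. The submitters' processing notes name the tools RSEM (1.2.31), Bowtie2 (2.5.1), R (4.1.1) and DESeq2, giving none of them a role. The strand setting, genome build and read filters were not given in the sources used here. Estimation of shared reads, if RSEM was used for it, would make counts of near-identical genes uncertain, and overlapping or antisense genes were not checked.

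Libraries were grouped by title. A filter on low counts (filterByExpr) left 19360 genes to test; 2286 of the others had no count at all. After TMM scaling, edgeR's quasi-likelihood model was fitted over all 19 libraries, with one mean per accession, as in an earlier treatment of the series. A gene was called at a Benjamini-Hochberg adjusted p below 0.05 over all tested genes and a difference of at least 2-fold. The standard error is the log2 fold change divided by the square root of F. Folds against no count are lower bounds at 3 counts over the group, and intervals are exact Poisson at 95%, for counting error only. Log2 CPM used a prior count of 1. Named genes are the G locus gene and, among called genes without overlap, the 2 largest differences in each direction, since no source used here pairs the IDs with names. The genes, sets and tests were chosen with earlier results of these data known. Alternatives were RLE scaling, no filter, DESeq2, limma-voom, glmTreat, no fold minimum, peach libraries alone, a replicate block, a covariate and leaving out libraries.

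Libraries within a peach all differed by more than sampling noise: chi-square per degree of freedom was at least 7.13, the value of TN11 4 with TN11 5. Software used here was edgeR 4.0.16, DESeq2 1.42.0 and limma 3.58.1 under R 4.3.3, and SciPy 1.17.1 under Python 3.11.15.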

Additional observations from a re-analysis of the deposited data

Results flagged for a closer look

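A sample far from the others of its group was looked for in 35 sets of 4 or 5 values with Dixon's criterion, which chance meets in about 1 of 20 sets, and 6 were found. TN7 5 had a mean correlation of 0.945 with the other TN7 libraries, against 0.963 for the next lowest. TN11 1 was nearer to the TN7 mean in 17.1% of the genes lower in TN7, against 4.82% for the next TN11 library, and TN11 2 in 4.65% of the genes higher in TN7, against 1.33%. For Prupe.1G205600.v2.1, MN 5 reached 21.0 CPM, with 2.75 CPM in the next MN library, and Sunraycer 4 reached 2429.4 CPM, with 1108.7 CPM in the next Sunraycer library. For Prupe.6G139800.v2.1, Sunraycer 3 had 4.29 CPM and the next Sunraycer library 3.04 CPM.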

How the results depend on the processing

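The number of called genes was 835 to 1133 with RLE scaling, no filter on low counts, DESeq2, limma-voom, the peach libraries alone or the score of the common direction as a covariate, and 696 (without TN7 1) to 880 (without TN7 5) when single libraries were left out. With 1 library left out there were 258 to 300 higher and 402 to 593 lower genes, with 32.6% to 42.2% higher. The glmTreat test called 300 genes (129 higher, 171 lower). Adjusted p without a fold minimum gave 1523 (669 higher, 854 lower). The limits of 5 and 20 counts gave 20 and 6 genes silent in TN11, in place of 13, and 13 and 8 silent in TN7, in place of 9; leaving out a library gave 13 to 16 there and 9 to 11 silent in TN7.

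Same-numbered TN7 and TN11 libraries had correlations of deviations of 0.130, 0.248, −0.0957 and −0.585 (replicates 1, 2, 3 and 5), and 1 of 4 TN7 libraries was closest to its own number. These values show no pairing by number, but so few of them cannot exclude one. A fit with a replicate block, on libraries of TN7 and TN11 with a shared number, called 548 genes (323 lower), and one without it 713 on the same libraries; the G locus gene was at −1.38 with the block.

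Genes lower in both TN7 minus TN11 and MN minus Sunraycer (240) numbered 49 with glmTreat, 370 without a fold minimum, 146 with the replicate block, 107 with the covariate and 157 (without TN7 1) to 324 (without TN7 5) with a library left out. The called share of chromosome 3 was 2.30% with glmTreat, 9.62% without a fold minimum, 3.71% with the block and 4.81% to 6.0% with a library left out. That of chromosome 2 was 0.770% with glmTreat, 5.99% without a fold minimum, 1.88% with the block and 2.52% to 3.38% with a library left out. The densest window held 4 called genes with glmTreat and 9 to 11 with a library left out, and the run of 6 lower genes 3 with the block and 5 to 6 with a library left out. The causes were not tested.

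For the G locus gene the value was −1.40 with glmTreat, which did not call it (adjusted p = 1), and −1.29 (adjusted p = 0.0585) without TN7 5 and TN11 1, a setting chosen after seeing the data. Its other alternatives kept the call, with −1.49 to −1.30 when a library was left out (edgeR adjusted p up to 0.0404). The 4 other named genes kept their direction and call in all alternatives run. Lists of genes by description were not run, since no source used here pairs the IDs with descriptions.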
